A study of Mus musculus with 6 samples.

Results

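AMPK is the cellular energy sensor whose catalytic α, scaffold β and nucleotide-binding γ subunits are each encoded by more than 1 gene, and LKB1, encoded by Stk11, is its main upstream kinase in skeletal muscle. The transcripts of these 8 genes (Prkaa1, Prkaa2, Prkab1, Prkab2, Prkag1, Prkag2, Prkag3 and Stk11) were examined by RNA sequencing of a fast-twitch muscle of the lower leg, the extensor digitorum longus (EDL). The genes were chosen by symbol, all 8 were among the 24411 genes of the count table, and all 8 passed the filter on low counts that left 12892 genes to test. EDL of 3 mAktDKO mice was compared with EDL of 3 control floxed mice, all on the C57BL/6J strain and 50 weeks old. The mAktDKO mice carry floxed alleles of Akt1 and Akt2 together with Cre knocked in at Mlc1f. The control mice carry the same floxed alleles without the deletion. The deletion is expected in muscle fibres, chiefly fast-twitch ones, because Mlc1f encodes one of their myosin light chains. It is not expected in the other cells of the muscle, and the paper describes low activity of the Mlc1f promoter in satellite cells.

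Falling energy charge raises AMP and ADP, which bind the γ subunit, and LKB1 bound to its partners STRAD and MO25 then holds the α subunit in its phosphorylated, active form. The active kinase switches off lipid and glycogen synthesis, favours fatty acid oxidation and glucose uptake, and slows growth signalling through mTORC1. In muscle the complexes with the γ subunit encoded by Prkag3 are typical of fast glycolytic fibres. These steps act on proteins and their phosphorylation, whereas the values given here are transcript levels, in CPM, that is counts divided by the library size of the mouse after TMM scaling.

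Total counts ranged from 13738795 to 15445523 per mouse, and the smallest count of any of the 8 genes in a mouse was 70. The control mice are named here by the numbers 2 to 4 of their columns, and flox 2 differed more from the other control mice (chi-square per degree of freedom 27.7 and 26.9) than these did from each other (10.8). In the check of the deleted genes, the mAktDKO mice had 51.3, 49.1 and 52.7 CPM of Akt2 and the control mice 172, 133 and 143 CPM. It fell by 1.55 on the log2 scale (SE 0.106, edgeR quasi-likelihood test, adjusted p = 0.000923). Its log2 fold change stayed between -1.63 and -1.43 when 1 mouse was left out, and its adjusted p was over 0.01 without any 1 of the mAktDKO mice (edgeR, 0.0165 to 0.0208). Akt1 was at 58.9, 56.8 and 51.4 CPM against 66.4, 65.5 and 66.5 CPM, and its log2 fold change of -0.25 did not pass the test (edgeR, adjusted p = 0.115). The counts cover each gene as a whole, including what lies outside a deleted exon. The 7 markers of fast muscle fibres were all detected, with a summed level of 100000 to 112000 CPM in the mAktDKO and 114000 to 123000 CPM in the control mice, which fits the labelled muscle.

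None of the 8 genes passed an adjusted p under 0.01 (edgeR quasi-likelihood test, Benjamini-Hochberg adjustment over all tested genes). In the same fit 3 of the 12892 genes, or 0.0233%, passed it. At an adjusted p under 0.05 the count remained 0 of 8 (edgeR), where 1.18% of all genes passed. At an unadjusted p under 0.05, 2 of the 8 genes passed, namely Prkaa1 and Prkag3, against 24.5% of all tested genes, which is close to the share among all genes. With DESeq2, 0 of 8 passed at an adjusted p under 0.01 or 0.05, where 3.09% and 7.33% of the genes with an adjusted p did. At an unadjusted p under 0.05, 1 of 8 (Prkag3) passed with DESeq2, where 14.1% of 17357 genes did. These 17357 genes were not filtered on low counts, so this share is not over the same genes as the edgeR share. The 3 mice of each genotype were separated without overlap for 1 of the 8 genes, Prkaa1, and for 31.1% of all tested genes. The log2 fold change was above 0 for 3 of the 8 genes and for 52.5% of all genes, and its median over the 8 genes was -0.04 beside 0.02 over all tested genes.

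**Figure D1:**
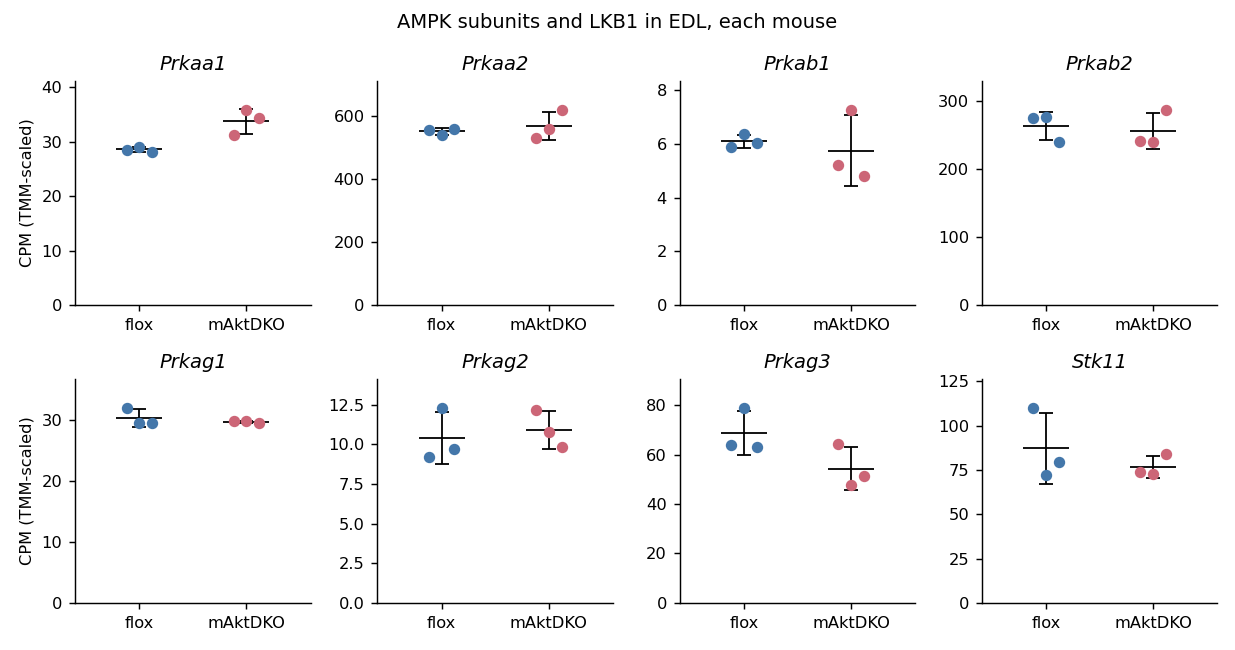
Level of each AMPK subunit gene and of Stk11 in every mouse, in TMM-scaled CPM on an axis that starts at 0 and differs between genes. Points are mice in the column order of the table, wide bars are means and whiskers are SD (n = 3), and Prkaa1 is the 1 gene in which the lowest mAktDKO mouse (31.3 CPM) lies above the highest control mouse (29.1 CPM).

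Stk11, which encodes the kinase that phosphorylates the activation loop of AMPK, lies on the forward strand of chromosome 10 (mm10, chr10:80115803-80130682). Its level was 73.7, 72.8 and 83.9 CPM in mAktDKO EDL and 110, 72.4 and 79.6 CPM in control EDL. Flox 2 stood above the other 5 mice, which lay close together, and the genotypes overlapped. Its log2 fold change was -0.19 (SE 0.148, 95% interval -0.52 to 0.15, edgeR, adjusted p = 0.457) and became 0.01 (edgeR, adjusted p = 0.951) when flox 2 was left out. Exons of Stk11 share 232 bases with Cbarp on the opposite strand.

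The window from 250 bases before to 50 bases after the transcription start was searched for the forkhead motif GTAAACA on both strands, because forkhead factors of the FoxO family are held out of the nucleus by Akt. RefSeq (GRCm38.p6, the same assembly as mm10) gave 10 such windows for the 8 genes, 3 of them for Prkag2. The motif was in 1 window of 10, that of Stk11, and in 3.65% of the 32851 windows of the genome. The Stk11 sequence is shown because it is the only match among these genes, from 250 bases before the start to 30 bases after it on the forward strand (chr10:80115545-80115824), with the motif in capitals beginning 17 bases into the transcript.

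Stk11: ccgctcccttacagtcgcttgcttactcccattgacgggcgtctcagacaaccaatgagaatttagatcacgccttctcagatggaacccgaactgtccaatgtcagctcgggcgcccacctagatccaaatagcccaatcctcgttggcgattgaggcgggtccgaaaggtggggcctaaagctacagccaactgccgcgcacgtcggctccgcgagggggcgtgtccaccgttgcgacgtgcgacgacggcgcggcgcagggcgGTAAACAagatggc

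The gene with this match was not among those with a small p, and the match is a description of the letters and not evidence of binding. The palindromic E-box CAGCTG, a motif bound by muscle-determination factors of the MyoD family, was also in 1 of the 10 windows, that of Prkag3, and in 16.3% of all windows.

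The catalytic subunits differed widely in level, and neither passed the test, Prkaa1 being the one of the pair whose genotypes did not overlap. Prkaa1 encodes the α1 subunit, found in most cell types (forward strand, chr15:5143861-5181899). Its level was 31.3, 35.8 and 34.3 CPM in mAktDKO EDL and 28.5, 29.1 and 28.2 CPM in control EDL. All 3 mAktDKO mice were above all 3 control mice, as in 14.6% of all tested genes. The means were 33.8 ± 2.30 and 28.6 ± 0.459 CPM (SD, n = 3 each), a fold of 1.18. The log2 fold change was 0.24 (SE 0.0855, 95% interval 0.05 to 0.43, edgeR, unadjusted p = 0.0208, adjusted p = 0.141), and it was 0.24 without flox 2. With DESeq2 the adjusted p was 0.273. In bulk muscle, a change in the number of cells of a type and a change in the RNA of each cell cannot be told apart. The summed level of 4 tendon markers was 795 to 1210 CPM in the mAktDKO and 582 to 753 CPM in the control mice, and that of 3 satellite cell markers was 6.47 to 8.03 against 5.75 to 6.27 CPM, both without overlap. Of the 3 satellite cell genes only Myf5 was separate by genotype (log2 fold change 0.59, edgeR, adjusted p = 0.179). Pax7 (0.08) and Calcr (0.22) overlapped, and none of the 3 passed. Most of the tendon sum was Fmod, and of the 4 tendon genes 0 passed an adjusted p under 0.05 with edgeR and 2 with DESeq2 (Tnmd, adjusted p = 0.00413, and Fmod, adjusted p = 0.00712). Of the 5 fibro-adipogenic markers all had a log2 fold change above 0, and Pdgfra (0.25) and Dcn (0.57) were higher in every mAktDKO mouse, Dcn with an adjusted p of 0.0539 with edgeR and 0.000346 with DESeq2. The 5 adipocyte markers were also all above 0, and Fabp4 (0.35) was higher in every mAktDKO mouse (adjusted p = 0.0941 with edgeR and 0.0426 with DESeq2). Endothelial (6 markers, 413 to 487 against 343 to 447 CPM) and macrophage markers (5 markers, 88 to 111 against 59.4 to 98.1 CPM) overlapped between the genotypes in their sums. Of the 6 endothelial markers 4 had a log2 fold change above 0, as had 2 of the 4 smooth muscle and pericyte markers. All 5 macrophage markers had a log2 fold change above 0, and Adgre1 (0.51) and Cd68 (0.93) were higher in every mAktDKO mouse without passing (edgeR, adjusted p = 0.149 and 0.141). None of these markers was at 0 over the 6 mice, and their part in the level of Prkaa1 was not tested.

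Prkaa2 encodes the α2 subunit, the main catalytic subunit of muscle fibres (reverse strand, chr4:105029874-105109890). Its level was 530, 557 and 617 CPM in mAktDKO EDL and 555, 538 and 558 CPM in control EDL. Mouse mAktDKO 3 was the highest and mAktDKO 1 the lowest, so the control mice lay inside the range of the mAktDKO mice. Its log2 fold change was 0.05 (SE 0.0871, 95% interval -0.15 to 0.24, edgeR, adjusted p = 0.774). The interval leaves room for a fold between 0.901 and 1.18.

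The β subunits hold the complex together and bind glycogen, and neither was separated by genotype. Prkab1, which encodes β1 (reverse strand, chr5:116013586-116024508), was at 5.20, 7.25 and 4.80 CPM in mAktDKO EDL and at 5.87, 6.35 and 6.05 CPM in control EDL. The mAktDKO mice were on both sides of the control mice. It had the fewest reads of the 8 genes, and the 95% interval of its log2 fold change of -0.08 was the widest, from -0.49 to 0.33 (edgeR, adjusted p = 0.815). Prkab2, which encodes β2, the main β subunit of muscle (forward strand, chr3:97658193-97673812), was at 241, 240 and 286 CPM against 274, 276 and 240 CPM. In each genotype the mice split between a lower level near 240 CPM and a higher one, and the groups overlapped. Its log2 fold change was -0.04 (SE 0.101, 95% interval -0.27 to 0.18, edgeR, adjusted p = 0.814).

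The γ subunits bind AMP, ADP and ATP. Of the 3 genes, Prkag3 was on average lower in the mAktDKO mice without passing the test, and Prkag1 and Prkag2 differed by less. Prkag3, which encodes the γ3 subunit of fast glycolytic fibres (reverse strand, chr1:74738922-74749221), was at 64.2, 47.7 and 51.2 CPM in mAktDKO EDL and at 64.0, 78.9 and 63.0 CPM in control EDL. Mice mAktDKO 2 and 3 were below every control mouse, whereas mAktDKO 1 was level with flox 2 and flox 4. The means were 54.4 ± 8.69 and 68.6 ± 8.94 CPM (SD, n = 3 each), a fold of 0.793. The log2 fold change was -0.34 (SE 0.132, 95% interval -0.63 to -0.04, edgeR, unadjusted p = 0.0316, adjusted p = 0.167), and it was -0.39 without flox 2. With DESeq2 the adjusted p was 0.127. Beside it, the summed level of the fast fibre markers given above was lower in every mAktDKO mouse, and 0 of its 7 genes passed an adjusted p under 0.05 with edgeR and 2 with DESeq2 (Myh1 and Tnni2). Among them, Myh1, the myosin heavy chain of type 2X fibres, had a log2 fold change of -0.51 (edgeR, adjusted p = 0.0539), and Myh4, that of type 2B fibres, one of -0.02. Tnni2, the fast troponin I, had one of -0.59 without overlap (edgeR, adjusted p = 0.0557). The DESeq2 adjusted p was 2.09e-06 for Myh1 and 0.00013 for Tnni2. Atp2a1 was also lower without overlap (-0.22, edgeR, adjusted p = 0.256), whereas Myh4, Mylpf, Tnnt3 and Actn3 overlapped. Myh4 was the largest part of the fast fibre sum, at a mean of 50000 CPM in the mAktDKO and 50600 CPM in the control mice. The slow fibre markers (6 genes, 661 to 1280 against 585 to 853 CPM) overlapped, 5 of the 6 had a log2 fold change above 0, and 0 passed an adjusted p under 0.05 with edgeR and 1 with DESeq2. This was Tnni1, the slow troponin I, at 0.83 (DESeq2, adjusted p = 0.0313), and Myh7, the slow myosin heavy chain, was at 0.90 (edgeR, adjusted p = 0.152). Whether fibre type has a part in the level of Prkag3 was not tested.

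Prkag1, which encodes the widely expressed γ1 subunit (reverse strand, chr15:98812797-98831521), was at 29.9, 29.8 and 29.6 CPM in mAktDKO EDL and at 32, 29.5 and 29.6 CPM in control EDL. Apart from flox 2 the mice were nearly level. A log2 fold change of -0.03 was found (SE 0.0804, 95% interval -0.21 to 0.15, edgeR, adjusted p = 0.829). Its exons share 950 bases with the antisense gene B130046B21Rik. Prkag2, which encodes γ2 (reverse strand, chr5:24862744-25100642), was at 12.2, 10.8 and 9.81 CPM against 9.23, 12.3 and 9.68 CPM. The ranges of the genotypes nearly coincided. A log2 fold change of 0.07 was found (SE 0.147, 95% interval -0.26 to 0.40, edgeR, adjusted p = 0.786). Exons of Prkag2 share 142 bases with Prkag2os1 and 795 bases with Prkag2os2 on the opposite strand, of which Prkag2os1 had no count in any mouse. The library kit keeps strand, but whether the counting used it is not given in the sources used here.

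**Figure D2:**
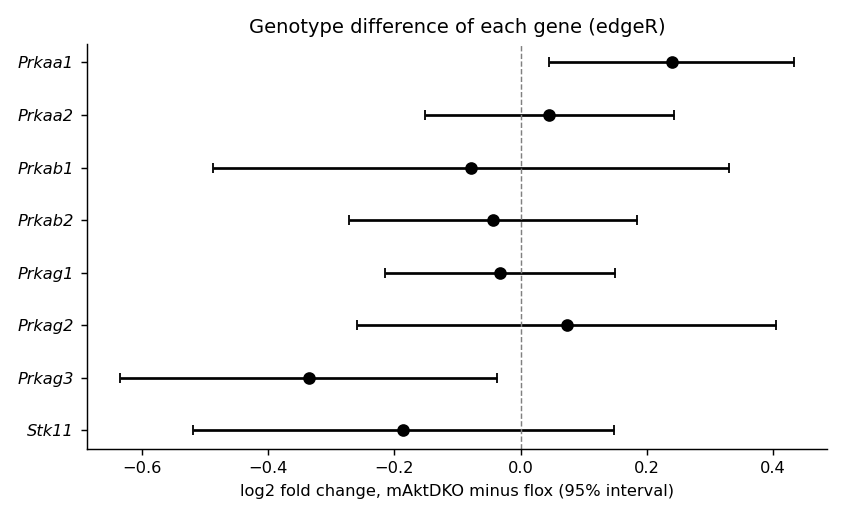
Log2 fold change (mAktDKO minus control) of each gene with its 95% interval from the edgeR fit, where 0 marks equal levels. The intervals of Prkaa1 (0.05 to 0.43) and Prkag3 (-0.63 to -0.04) leave out 0 before adjustment for the number of genes tested, and the other 6 include it.

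Levels of different genes were compared in CPM per kilobase of transcript (the median length of the coding transcripts of each gene in GENCODE M21), as the mean over the 6 mice. Prkaa2 was the highest at 70.2 CPM per kb, followed by Stk11 at 55.7, Prkab2 at 51.8 and Prkag3 at 26.3 CPM per kb. Prkag1 was at 18.2, Prkaa1 at 6.73, Prkag2 at 3.76 and Prkab1 at 2.88 CPM per kb. The mice of neighbouring genes in this order overlapped for Prkaa2 and Stk11, for Stk11 and Prkab2, and for Prkag2 and Prkab1, and were separate for the other neighbours. The place of Stk11 rests on the length used, since with its longest transcript (2566 bases in place of 1474) its level was 32 CPM per kb, below every mouse of Prkab2. So does the separation of Prkag3 from Prkag1, since with the longest Prkag3 transcript (2832 bases in place of 2341) its mice ranged from 16.9 to 27.9 CPM per kb and overlapped those of Prkag1 at 17.9 to 19.4 CPM per kb.

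**Figure D3:**
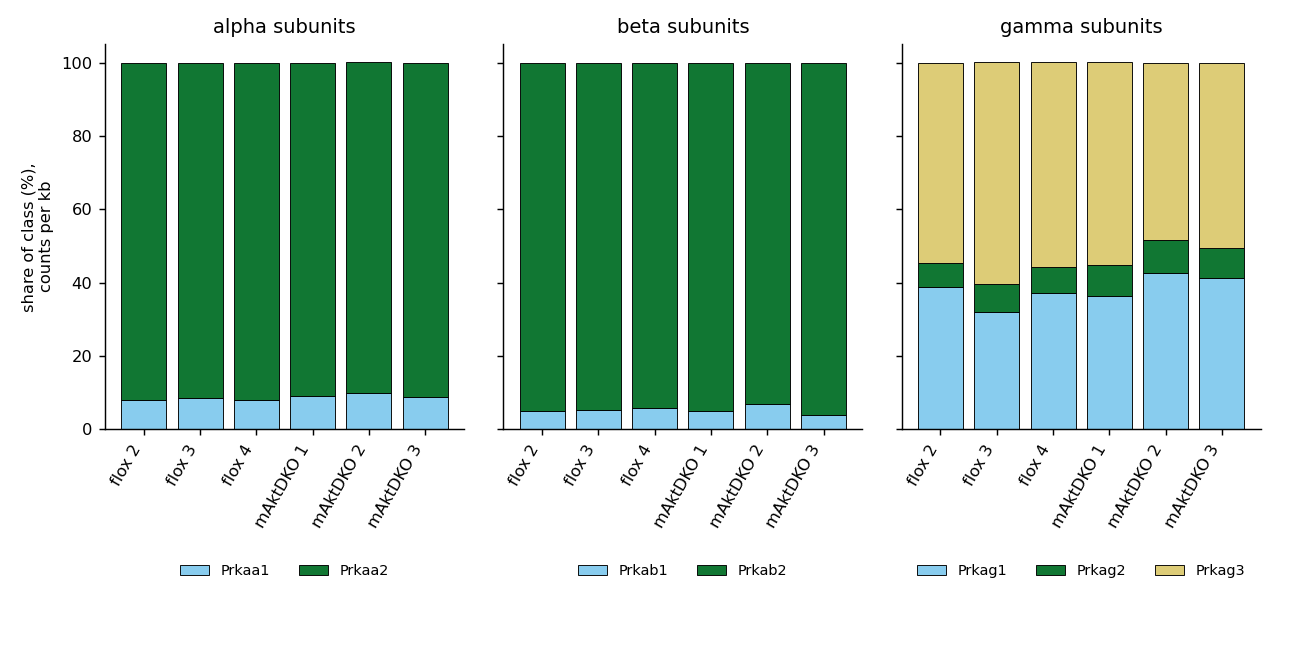
Share of each isoform gene in the summed counts per kb of its subunit class, in percent, for each mouse. Prkaa2 and Prkab2 make up nearly all of the α and β classes in all 6 mice, and Prkag3 makes up 48.3% to 60.3% of the γ class.

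Shares of the isoforms within a subunit class do not depend on scaling between mice. Prkaa2 accounted for 90.7% of the α counts per kb in the mAktDKO and 91.8% in the control mice, and Prkab2 for 94.7% of the β counts per kb in both. The muscle isoforms α2 and β2 were thus the predominant transcripts in either genotype. The share of Prkaa1 was 9.20, 9.93 and 8.72% in the mAktDKO and 8.11, 8.51 and 8.0% in the control mice. The 3 mAktDKO mice were all higher, by 1.08 percentage points on average (9.29 ± 0.609 against 8.21 ± 0.27%, SD, n = 3 each, exact two-sided permutation p = 0.1). This is the smallest p that 3 mice against 3 can give, so that no share can reach p under 0.05 in this design. The share of Prkab1 was 5.25% against 5.34%, with a larger spread between mAktDKO mice (3.92 to 6.85%) than between control mice (4.96 to 5.77%) (exact two-sided permutation p = 1).

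In the γ class, Prkag3 took 55.1, 48.3 and 50.6% of the counts per kb in the mAktDKO mice and 54.7, 60.3 and 55.8% in the control mice. Mouse mAktDKO 1 lay within the control range and the other two mAktDKO mice below it. The mean share differed by -5.57 percentage points (51.3 ± 3.43 against 56.9 ± 2.96%, SD, n = 3 each, exact two-sided permutation p = 0.2). Prkag2 took 8.65, 9.0 and 7.99% against 6.51, 7.76 and 7.07%. Every mAktDKO mouse had a larger Prkag2 share than every control mouse, with a mean difference of 1.44 points (exact two-sided permutation p = 0.1, the smallest possible). The shares of a class are not independent, since a lower share of any gene raises those of the others. In CPM the genotypes overlapped for Prkag2 (log2 fold change 0.07). Prkag1 took 36.3, 42.7 and 41.4% against 38.8, 32 and 37.2%. These ranges overlapped, and the mean was higher by 4.14 points in the mAktDKO mice (exact two-sided permutation p = 0.3) and by 2.13 points without flox 3. With the longest transcripts, Prkag3 took 47.2% and Prkag1 44.6% of the class in the mAktDKO mice and 52.8% and 40.4% in the control mice.

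The ratio of Prkag3 to Prkag2 counts was 2.31 in the mAktDKO and 2.72 in the control mice on the log2 scale, a difference of -0.42 without overlap (exact two-sided permutation p = 0.1). This ratio rests on the same counts as the shares above. The ratio of Prkag3 to Prkag1 was 0.86 against 1.17, and the groups overlapped (exact two-sided permutation p = 0.3). Summed over each class, the α genes were at 78.6 ± 5.8 against 75.2 ± 1.27 CPM per kb, the β genes at 53.9 ± 4.9 against 55.6 ± 4.06, and the γ genes at 45.1 ± 4.13 against 51.4 ± 4.04 CPM per kb (SD, n = 3 each). The exact two-sided permutation p was 0.5, 0.9 and 0.2, respectively. In each class the mice of the genotypes overlapped.

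For the 2 genes with the smallest p, the genes with the most similar pattern over the 6 mice were sought by the root mean square difference of centred log2 CPM. For Prkaa1 these were Ppap2b (0.0213), Dazap2 (0.0252) and Clint1 (0.0259), where the median over all genes was 0.23. For Prkag3 they were Guf1 (0.0395), Zfp513 (0.0543) and Dhodh (0.057), where the median was 0.3. The nearest of all tested genes lie below the median by selection, so the median is no measure of how unusual they are. The likeness describes these 6 libraries only.

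The wider pathway was then examined with 53 genes in 7 lists of upstream regulators, related kinases and substrates, of which 52 were tested. The exception was the related kinase Brsk2, with at most 8 counts in a mouse. None passed an adjusted p under 0.01, and 1 of 52, the AMPK substrate Tbc1d1, passed 0.05 (edgeR). It was lower in the mAktDKO mice, as were 0.915% of all genes at that threshold. At an unadjusted p under 0.05, 5 of 52 were higher and 11 of 52 lower, where 11.4% and 13.1% of all tested genes were. The genotypes did not overlap for 1 higher and 14 lower genes, beside 14.6% and 16.6% of all genes. The log2 fold change was above 0 in 26 genes and below 0 in 26, with a median of -0.01.

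**Figure D4:**
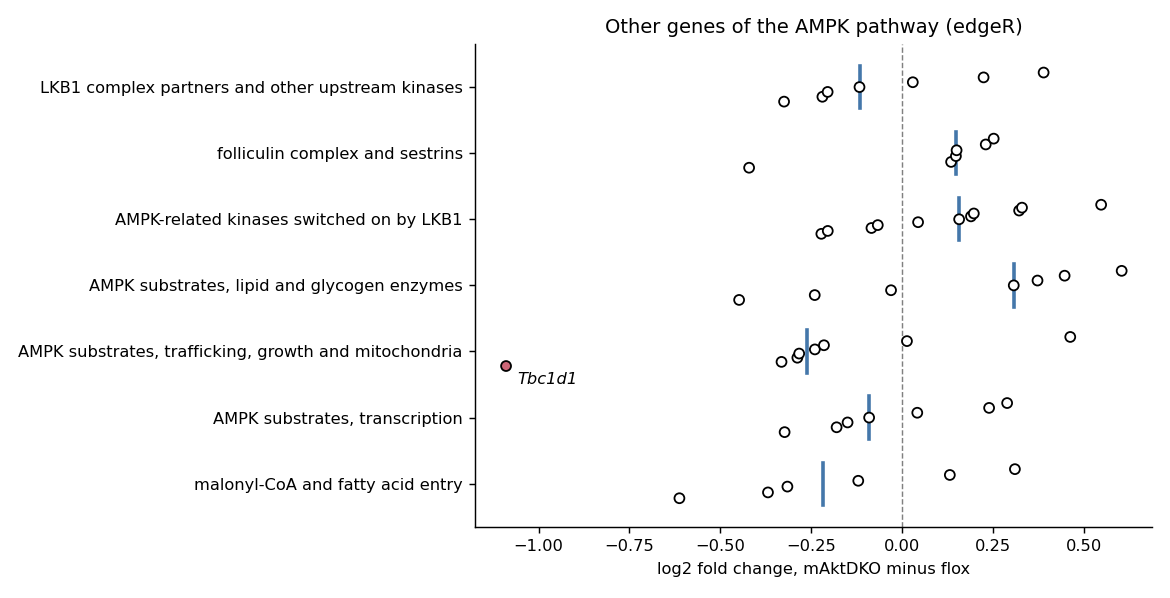
Log2 fold change (mAktDKO minus control) of each tested pathway gene, by list, from the edgeR fit. The filled point is Tbc1d1 (-1.09), the 1 gene with an adjusted p under 0.05, open points did not pass, and blue bars are list medians, from -0.26 for the trafficking, growth and mitochondrial substrates to 0.31 for the lipid and glycogen enzymes.

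Tbc1d1 encodes a Rab GTPase-activating protein that restrains GLUT4 in muscle until AMPK or Akt phosphorylates it. Its level was 43.8, 42.4 and 54.9 CPM in mAktDKO EDL and 106, 86.4 and 108 CPM in control EDL. All mAktDKO mice were far below all control mice. Tbc1d1 fell by 1.09 on the log2 scale (SE 0.126, 95% interval -1.37 to -0.81, edgeR, adjusted p = 0.018), and its log2 fold change lay between -1.23 and -1.02 when 1 mouse was left out. It passed 0.05 without any 1 of the control mice or mAktDKO 3 (edgeR, adjusted p = 0.0126 to 0.0322), but not without mAktDKO 1 (adjusted p = 0.0966) or mAktDKO 2 (adjusted p = 0.105). With DESeq2 its adjusted p was 5.42e-12. The related Tbc1d4, also known as AS160, was at 63.2, 47.8 and 55.7 CPM against 53.2, 37.2 and 30.3 CPM. Its groups overlapped, with a log2 fold change of 0.46 that did not pass (edgeR, adjusted p = 0.178), and it was chosen after its values were seen.

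Of the 8 substrates in trafficking, growth and mitochondria, 6 had a log2 fold change below 0, and in 5 of these the genotypes did not overlap, as in 16.6% of all tested genes. Becn1, of the autophagy-initiating lipid kinase complex, had a log2 fold change of -0.28 (40.8 ± 2.53 against 49.7 ± 1.45 CPM, edgeR, adjusted p = 0.0922). Mtfr1l, a mitochondrial protein, had one of -0.33 (86.1 ± 6.36 against 108 ± 10.6 CPM, edgeR, adjusted p = 0.0954). Other than Tbc1d1, no gene of this list passed at 0.05 with edgeR, and Mtfr1l did with DESeq2 (adjusted p = 0.0496).

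Of the 7 LKB1 partners and other upstream kinases, 3 were higher and 4 lower in log2 fold change, and none passed. The 2 genes of the pseudokinase STRAD, which activates LKB1, both had a log2 fold change below 0. Strada was at 7.80, 6.95 and 6.93 CPM in mAktDKO EDL and 10.5, 8.17 and 8.47 CPM in control EDL (log2 fold change -0.32, edgeR, adjusted p = 0.196). Stradb, the more abundant in CPM, was at 77.2, 80.2 and 86.9 against 97.3, 102 and 85.1 CPM (log2 fold change -0.22, edgeR, adjusted p = 0.186). The genotypes were separate for Strada and overlapped for Stradb. Camkk2, the calcium-dependent kinase that can phosphorylate AMPK in place of LKB1, had a log2 fold change of 0.39 (14.8 ± 2.35 against 11.3 ± 1.75 CPM, edgeR, adjusted p = 0.172).

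Among the folliculin complex and sestrins, which act upstream of AMPK and mTORC1, 5 of 6 genes were above 0 and none passed. Sesn3 had a log2 fold change of 0.25 without overlap (26.8 ± 0.99 against 22.5 ± 1.75 CPM, edgeR, adjusted p = 0.147). Sesn2 had one of -0.42, also without overlap, at a low level (2.63 ± 0.339 against 3.51 ± 0.168 CPM, edgeR, adjusted p = 0.21). Fnip2, a folliculin partner, had one of 0.15 (edgeR, adjusted p = 0.422). The 11 tested kinases that LKB1 also switches on had 7 log2 fold changes above 0 and 4 below, and none passed. Those with the smallest p were Nuak2 (0.55, edgeR, adjusted p = 0.174), Snrk (-0.22, adjusted p = 0.207) and the salt-inducible kinase Sik1 (0.19, adjusted p = 0.286).

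Of the 7 lipid and glycogen enzymes that AMPK phosphorylates, 4 were above 0 and 3 below. Gys1, the muscle glycogen synthase, was at 307, 327 and 337 CPM in mAktDKO EDL and at 515, 403 and 406 CPM in control EDL. The genotypes were separate, with flox 2 the highest. Its log2 fold change was -0.45 (SE 0.111, edgeR, adjusted p = 0.0693), and -0.32 without flox 2, whereas DESeq2 gave an adjusted p of 0.00456. Pfkfb3, which stimulates glycolysis, had a log2 fold change of 0.60 with wide spread (165 ± 34.6 against 108 ± 48.1 CPM, edgeR, adjusted p = 0.264), and of 0.28 without flox 3.

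In the list of malonyl-CoA and fatty acid entry into mitochondria, 4 of 6 genes were below 0. Slc25a20, the carnitine-acylcarnitine carrier of the inner membrane, was at 31.9, 34.7 and 34.3 CPM in mAktDKO EDL and at 61.2, 52.5 and 40.5 CPM in control EDL. The mAktDKO mice were all lower and the control mice widely spread. Its log2 fold change was -0.61 (SE 0.139, edgeR, adjusted p = 0.0598), and -0.47 without flox 2, whereas DESeq2 gave an adjusted p of 0.00316. Cpt2, the inner carnitine palmitoyltransferase, had a log2 fold change of -0.32 (edgeR, adjusted p = 0.11) and Cpt1a, an outer-membrane one, of 0.31 (edgeR, adjusted p = 0.211). Among the 7 transcriptional regulators that AMPK phosphorylates, 3 were above 0 and 4 below, with Hdac5 at -0.32 (edgeR, adjusted p = 0.196), Crtc2 at 0.29 (adjusted p = 0.242) and Hdac4 at -0.18 (adjusted p = 0.281). Without flox 2, Hdac5 was at -0.12 and Hdac4 at -0.08.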

How the data were processed

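RNA was sequenced from EDL of 3 mAktDKO and 3 control floxed mice. The authors made rRNA-depleted, directional libraries, read them in pairs of 37 bp, mapped them to mm10 with STAR (2.6.1b per the submitters' processing notes, another version in the methods) and counted reads per gene with RSEM 1.3.1. The deposited table holds its expected counts, which were not scaled between mice.

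The counts were rounded and tested with edgeR 4.0.16 in R 4.3.3 (filterByExpr with a minimum count of 10, TMM, quasi-likelihood test, Benjamini-Hochberg adjustment). A gene was called at an adjusted p under 0.01. The study used DESeq2 and asked for a q value as well, which was not used here. The SE is the log2 fold change divided by the square root of F, and centred log2 CPM used a prior count of 2. A gene at 3 counts, the floor of this depth, lay at 0.194 to 0.218 CPM. Single values were compared by exact permutation. Transcript lengths came from GENCODE M21 and promoters from RefSeq. The steps were tested on simulated data.

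The 3 mice of a group are separate samples in the labels, and p-values measure the spread between them. The 8 genes, the pathway lists and the markers were chosen with earlier results of these data known. The named pathway genes are those at an adjusted p under 0.05 and the 3 with the smallest p in each list, of which 1 is not reported here, with Tbc1d4 added after its values were seen, and the similar genes are the 3 nearest to each of the 2 members with the smallest p. Alternatives were DESeq2 1.42.0, other scalings, filters, the threshold, transcript lengths and leaving out each mouse. Of the marker lists whose sums are not given in the results, the summed CPM in the mAktDKO against the control mice was 18300 to 21700 against 7280 to 18400 (fibro-adipogenic, mostly Col1a1), 149 to 232 against 128 to 156 (adipocyte), 476 to 570 against 426 to 499 (smooth muscle and pericyte), 234 to 319 against 213 to 251 (Schwann cell) and 150 to 320 against 114 to 168 (erythrocyte). In the last list Hbb-bs passed an adjusted p under 0.05 (edgeR), at 23.5, 9.23 and 10 CPM in the mAktDKO mice and 0 in all 3 control mice. It has near-identical copies between which the counting could split reads, which was not tested.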

Additional observations from a re-analysis of the deposited data

How the results depend on the processing

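None of the 8 genes was called under any alternative, whether scaling by upper quartile, library totals or DESeq2 size factors, no filter, at least 10 counts in every mouse, DESeq2, an adjusted p under 0.05 or leaving out any mouse. The smallest adjusted p among them ranged from 0.0681 (edgeR, library totals) to 0.402 (edgeR, without mAktDKO 2). Prkaa1 and Prkag3 kept their direction throughout, at 0.20 to 0.29 and -0.47 to -0.22 on the log2 scale when 1 mouse was left out. The number of the 8 genes at an unadjusted p under 0.05 (edgeR) depended on the mouse left out. It was 0 without mAktDKO 2 or mAktDKO 3, 1 without flox 3 or flox 4, and 2 without mAktDKO 1 or flox 2. Library totals moved the median over all tested genes from 0.02 to 0.16, and there Prkab1 turned to 0.0649, Prkab2 to 0.0896 and Prkag1 to 0.11, below that median, while Prkaa1 was at 0.38 and Prkag3 at -0.20. When 1 mouse was left out, the log2 fold change ranged from -0.0326 to 0.0925 for Prkaa2, -0.28 to 0.0175 for Prkab1, -0.15 to 0.0001 for Prkab2, -0.0545 to 0.0056 for Prkag1, -0.02 to 0.21 for Prkag2 and -0.31 to 0.0131 for Stk11, so that the sign of these 6 is not settled. The Prkag2 reversals came without mAktDKO 1 (-0.0156) and without flox 2 (-0.0092).

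The Prkag1 share difference ranged from 2.13 points (without flox 3) to 6.06 points (without mAktDKO 1). The Prkag2 share differed by 2.04 points and the Prkaa1 share by 0.677 points with raw counts in place of counts per kb. With the longest transcript, a length chosen after the data were seen, Prkag2 was at 3.21 CPM per kb. Of the pathway genes, 0 were called in the reported fit, 1 without a filter (Tbc1d1), 3 with DESeq2 (Tbc1d1, Gys1 and Slc25a20) and 1 at an adjusted p under 0.05. Without mAktDKO 1 or 2, Tbc1d1 was no longer under 0.05 (edgeR, adjusted p 0.0966 and 0.105). Leaving out 1 mouse also moved Strada to -0.20, Fnip2 to 0.09, Sik1 to 0.11, Hdac5 to -0.12 and Hdac4 to -0.08 (without flox 2), Pfkfb3 to 0.28 and Sik1 to 0.31 (without flox 3), Snrk to -0.14 (without mAktDKO 1) and Fnip2 to 0.07 and Crtc2 to 0.18 (without mAktDKO 3), none of which was called. Akt2 was no longer under 0.01 without mAktDKO 1, 2 or 3 (edgeR, log2 fold change -1.55, -1.52 and -1.59, adjusted p 0.0208, 0.0188 and 0.0165). Library totals brought Akt1 to -0.11, Strada to -0.18, Stradb to -0.083, Snrk to -0.087 and Becn1 to -0.14. In that scaling Mtfr1l was at -0.19, Hdac4 at -0.0393, Hdac5 at -0.18 and Cpt2 at -0.18. Genes above 0 rose there, with Fnip2 at 0.28, Sesn3 at 0.39 and Sik1 at 0.33, and none of these genes was called. Over all genes 0 to 8 were called when 1 mouse was left out, 32 without a filter and 328 with DESeq2, beside 3 in the reported fit. No paired analysis was possible because the numbers of the control columns (2 to 4) differ from those of the labelled mice (1 to 3), and the planned fits with a replicate block were not run. The cause of these differences was not tested. With 3 mice a group, the width of the 95% intervals limits what can be said of a small difference.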
